A study of Mus musculus with 12 samples.

Results

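The collagen genes were taken as every gene whose symbol has the form Col, a type number, the letter a and a chain number. The whole-lung table listed 44 of them among 21950 genes, and the table of extracellular vesicles listed 12 among 8096. The RNA came from lungs of adult C57BL/6 mice, taken whole, and from vesicles, membrane particles that cells release, in the medium of lung mesenchymal cells after 48 h of culture. The groups were 2 mutant-labelled and 4 wild-type lung libraries, and 2 mutant-labelled and 4 wild-type vesicle libraries. Sample labels name the mutant as ColcreER; Tbx4flox/flox, in which a Cre recombinase that tamoxifen can switch on is driven by a Col gene not named further, and Tbx4, a transcription factor of lung mesenchyme, is floxed. The design text instead names Tbx4creER; Ghrflox/flox, where Tbx4 is the driver and the growth hormone receptor Ghr is floxed. The genotype is therefore left as mutant-labelled. The labels say neither whether animals were pooled nor which cells the Cre reaches, and p-values measure only the spread between these libraries.

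Collagens are secreted proteins whose chains wind around each other into a stiff helix. Some types, such as collagen III, use copies of a single chain, while others, such as collagens I, IV and VI, join different chains. Fibrillar collagens such as types I, III and V form the cables that bear tension in airways, vessels and the alveolar wall, while collagen IV forms the sheets of basement membranes on which epithelium and endothelium rest. Other classes link, coat or anchor these structures: FACITs (fibril-associated collagens with interrupted helices) sit on fibrils, collagen VI makes beaded filaments, and some collagens span the cell membrane. In the lung, fibroblasts, smooth muscle, endothelium and epithelium all contribute to these layers.

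The lung libraries held 42.7 to 44.8 M (megareads) in genes. The depth of the vesicle libraries was 1.75 and 1.68 M in the mutant-labelled group, against 4.2 to 5.41 M in the wild-type group. Values are RPKM, reads per kilobase of gene and per megaread. Tbx4 stood at 20.9 and 36.8 RPKM in the mutant-labelled lungs and 26.1 to 30.1 RPKM in wild-type lungs, and Ghr at 9.84 and 12.9 RPKM in the mutant-labelled lungs and 11.9 to 13.3 RPKM in wild-type lungs, so that neither named target separated the lung groups. In vesicles Ghr did not overlap between the groups, which held for 19.8% of all vesicle genes tested. It stood at 13.1 and 11.2 RPKM in mutant-labelled vesicles against 21.3, 19.8, 23.6 and 25.1 RPKM in wild-type vesicles (log2 difference -0.83, limma adjusted p = 0.627). Libraries with a mean above 1 RPKM over the Y-linked genes (4 in lung, 2 in vesicles) were taken to carry Y-linked transcripts. These were wild-type libraries 1 and 2 of both sources, at 10.7 and 10.6 RPKM in lung and 38.5 and 23 RPKM in vesicles. The other libraries, all mutant-labelled ones among them, had 0.663 to 0.778 RPKM in lung and at most 0.0717 RPKM in vesicles. Sex is therefore partly confounded with the groups. Of the 8 fibroblast markers the vesicle table listed 6, and it listed none of the markers of endothelium, epithelium, cartilage, heart muscle, red cells or keratinocytes. Marker sums set vesicle libraries apart. Summed fibroblast markers were 37.4 RPKM in mutant-labelled vesicle library 1 and 402 RPKM in library 2, against 205 to 455 RPKM in wild-type vesicles. Summed smooth muscle markers, 5 of 5 listed, were 262 RPKM in mutant-labelled vesicle library 1 and 1991 RPKM in library 2, against 964 to 1898 RPKM in wild-type vesicles. Summed leukocyte markers, 4 of 6 listed, were 4652 and 3403 RPKM in mutant-labelled vesicles, against 141, 2539, 2091 and 30.2 RPKM in wild-type vesicles. In lung, mutant-labelled library 1 was the lowest of the 6 for 29.0% of the genes tested, the largest such share of any lung library.

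Whole lung transcribed collagens of every class, and some chains of collagens I, III, IV and VI stood above the rest. By mean RPKM over wild-type lungs the order began with Col4a1 (132), Col4a2 (117), Col1a1 (60.9), Col6a1 (60.3), Col3a1 (49.1), Col1a2 (39.1) and Col6a2 (28.4). Other chains of collagens IV and VI did not stand apart, with Col6a3 at 18.1, Col4a4 at 17.9 and Col4a6 at 3.99, beside 17.0 for the transmembrane Col13a1. Neighbours such as Col1a1 and Col6a1, whose SDs over 4 libraries were 5.22 and 6.17 RPKM, did not differ beyond their spread. At the other end, 16 of the 44 genes did not reach 1 RPKM in at least 2 lungs and were not tested. These untested members include the chains of cartilage collagens II, IX, X and XI, and their values are given with their classes. The order depends on the length by which reads were divided. For Col1a2, Col3a1 and Col6a2 the deposited values match lengths of 12270, 9789 and 8326 bases, while the longest annotated coding transcripts have 5347, 5564 and 4653 bases.

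**Figure D1:**
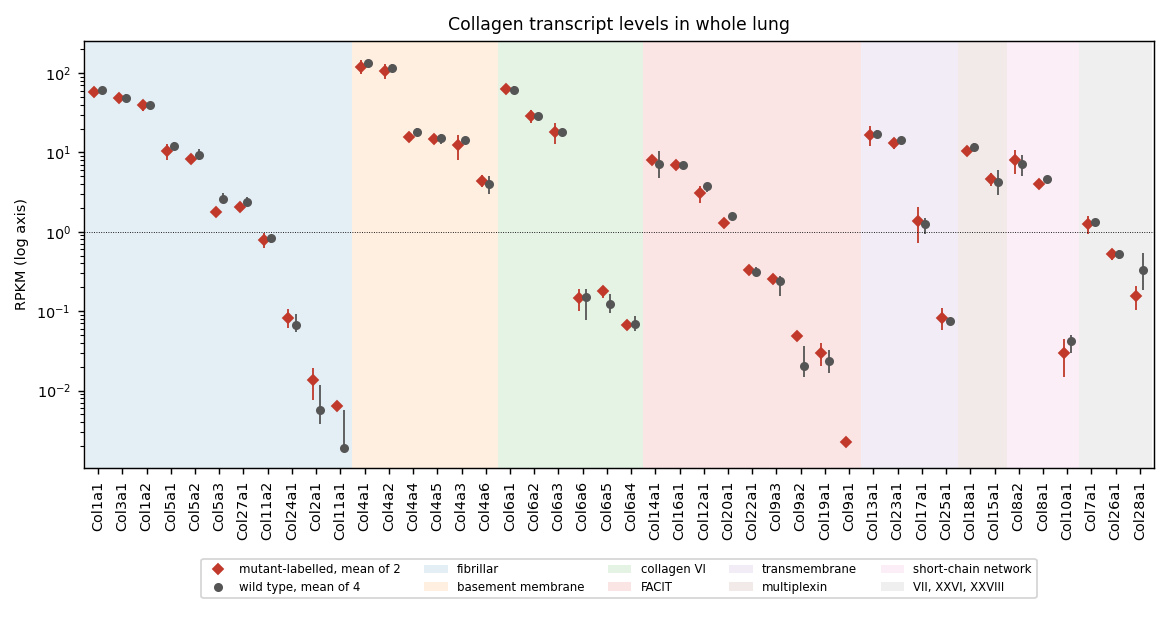
Transcript level in whole lung of the 44 collagen genes, grouped by class, on a log axis in RPKM. Diamonds are means of 2 mutant-labelled lungs and circles means of 4 wild-type lungs, with lines between the lowest and highest value above 0. Col4a1 and Col4a2 lie at the top in both groups, and the dotted line marks 1 RPKM.

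In the comparison of mutant-labelled with wild-type lungs no collagen passed the test. Limma-trend called 0 of the 28 collagens tested (adjusted p of 0.994 to 1.0), beside 0.0% of the 13701 genes tested, and 0 were called by limma-voom run on the recovered reads. The unadjusted p of 1 of the 28, Col5a3, was under 0.05, as it was for 3.75% of all genes. The log2 difference was above 0 for 8 collagens and below 0 for 20, beside 55.7% of all genes above 0, with a median of -0.08 over the 28 and 0.01 over all genes. The groups did not overlap for 2 of 28 collagens, Col5a3 and Col20a1, both lower in mutant-labelled lungs, beside 11.6% of all genes in either direction and 4.12% lower. By class the median log2 difference was -0.14 for 7 fibrillar collagens, -0.15 for 6 basement membrane collagens, 0.00 for 3 collagen VI chains, -0.08 for 4 FACITs and -0.08 for 3 transmembrane collagens. In these whole-tissue libraries, fewer cells of a type and less RNA per cell cannot be told apart.

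The 2 mutant-labelled lungs differed from each other more than the groups did. Summed over the 44 genes, collagen RPKM was 535 and 733 in mutant-labelled lungs 1 and 2, against 662, 687, 671 and 646 in wild-type lungs 1 to 4. The wild-type lungs all fell between these extremes, library 1 being the lowest of the 6 and library 2 the highest. Gene by gene, library 1 was below all wild-type lungs for 21 of 28 collagens (75.0%), beside 30.7% of all genes. Library 2 was above all wild-type lungs for 10 of 28 (35.7%), beside 32.3% of all genes. Both held at once for 9 of 28 (32.1%), beside 14.1% of all genes, and the opposite pattern for 0 of 28, beside 6.28%. These shares describe single libraries and carry no test, since collagens of a lung share its cells. Summed epithelial markers, 6 of 6 listed, ran the other way, at 16940 RPKM in mutant-labelled lung 1 and 11520 RPKM in lung 2, against 13090 to 16740 RPKM in wild-type lungs. Summed endothelial markers ran the same way as the collagens, at 360 RPKM in mutant-labelled lung 1 and 575 RPKM in lung 2, against 440 to 483 RPKM in wild-type lungs. Summed fibroblast markers were 225.5 RPKM in mutant-labelled lung 1, within the wild-type range of 203.6 to 251.3 RPKM, and 266.6 RPKM in lung 2. Smooth muscle, leukocyte, mesothelial, cartilage and keratinocyte sums were higher in lung 1 than in lung 2, and heart muscle and red cell sums were lower. The part of any of these in the collagen values was not tested. The median log2 difference over the collagens was 0.09 when mutant-labelled lung 1 was left out and -0.26 when lung 2 was left out.

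**Figure D2:**
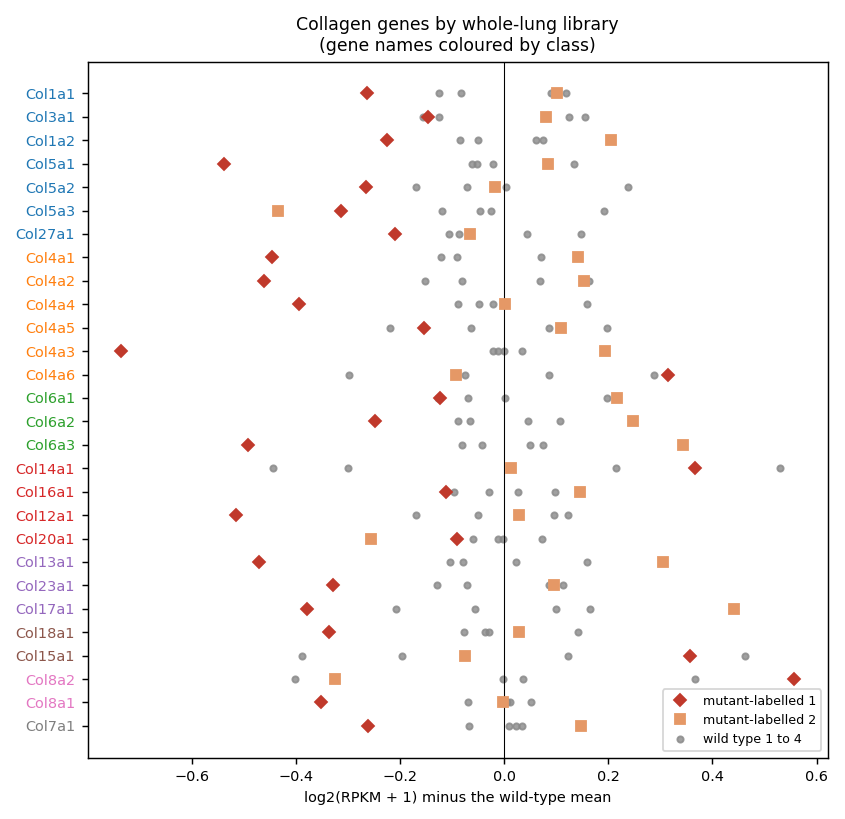
Each of the 28 tested collagens in whole lung, one per row and coloured by class. The horizontal axis is log2(RPKM + 1) minus the wild-type mean, with a diamond for mutant-labelled lung 1, a square for mutant-labelled lung 2 and dots for the 4 wild-type lungs. The diamonds lie left of all dots in 21 rows and the squares right of all dots in 10.

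Among the fibrillar collagens, all 7 tested genes had a log2 difference below 0, from -0.37 to -0.01, and none passed. That shared direction depended on mutant-labelled lung 1. Without it the difference was 0.10 for Col1a1, 0.21 for Col1a2, 0.081 for Col3a1 and 0.083 for Col5a1, but -0.43 for Col5a3. For Col5a2 and Col27a1 that fit is not given here. Col1a1, which codes for the alpha 1 chain of collagen I (ENSMUSG00000001506, mm9 chromosome 11, 94797538 to 94814356), was at 50.4 and 65.2 RPKM in the mutant-labelled lungs, against 57.2, 66.0, 64.7 and 55.6 RPKM in wild-type lungs. Col1a2, its partner chain, stood at 33.3 and 45.2 RPKM in the mutant-labelled lungs, against 40.8, 37.6, 41.2 and 36.7 RPKM in wild-type lungs. In both, mutant-labelled library 1 was below every wild-type lung while library 2 was within or above their range. The log2 differences were -0.08 (SE 0.13, 95% confidence interval -0.38 to 0.22) for Col1a1 and -0.01 (SE 0.12, interval -0.31 to 0.29) for Col1a2. Col3a1, the single chain of collagen III and a partner of collagen I in distensible tissue, stood at 44.0 and 51.7 RPKM in the mutant-labelled lungs, against 44.7, 53.4, 54.5 and 43.8 RPKM in wild-type lungs. Its groups overlapped fully, with a difference of -0.03 (SE 0.12).

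Collagen V chains start fibrils and limit their width. Col5a1 stood at 8.02 and 12.9 RPKM in the mutant-labelled lungs, against 11.9, 13.4, 11.6 and 11.6 RPKM in wild-type lungs, so that again only library 1 was outside the wild-type range (-0.23, SE 0.17). Col5a3, a less abundant chain of the same collagen (ENSMUSG00000004098, chromosome 9, 20574494 to 20619511), was low in both. It stood at 1.89 and 1.65 RPKM in the mutant-labelled lungs, on 562 and 486 reads, against 2.47, 3.10, 2.30 and 2.52 RPKM in wild-type lungs, on 702 to 916 reads. The groups did not overlap, and the log2 difference of -0.37 (SE 0.10, interval -0.62 to -0.12) had an unadjusted p of 0.0102 but a limma adjusted p of 0.994. It ran from -0.43 to -0.31 when any 1 library was left out, and its sign could not turn, because the groups did not overlap. Col5a2 (7.45 to 11.0 RPKM over the 6 lungs) and Col27a1 (1.91 to 2.72 RPKM) had overlapping groups. The other 4 fibrillar genes were not tested. Col11a2 ranged from 0.629 to 0.967 RPKM and Col24a1 from 0.0543 to 0.105 RPKM. Col2a1 and Col11a1, chains of cartilage fibrils, had at most 5 and 4 reads in any lung. Summed cartilage markers were also low, at 0.616 and 0.562 RPKM in the mutant-labelled lungs and 0.303 to 0.419 RPKM in wild-type lungs.

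The most abundant collagens of the lung, Col4a1 and Col4a2, lie head to head on mm9 chromosome 8 and code for the chains of the common collagen IV network. Their annotated starts overlap by 22 bases (Col4a1 starts at 11312826 on the minus strand and Col4a2 at 11312805 on the plus strand). The 300 bases around each start, 250 before and 50 after, are shown because the 2 genes share this region and their levels are set beside each other in lung and in vesicles. The sequences are those of RefSeq on GRCm38.p6, and the last 78 bases of each window are the same genomic stretch read from opposite strands. Capitals mark the letters CCAAT and GGGCGG or their reverse complements ATTGG and CCGCCC.
Col4a1, chr8:11312777-11313076, minus strand: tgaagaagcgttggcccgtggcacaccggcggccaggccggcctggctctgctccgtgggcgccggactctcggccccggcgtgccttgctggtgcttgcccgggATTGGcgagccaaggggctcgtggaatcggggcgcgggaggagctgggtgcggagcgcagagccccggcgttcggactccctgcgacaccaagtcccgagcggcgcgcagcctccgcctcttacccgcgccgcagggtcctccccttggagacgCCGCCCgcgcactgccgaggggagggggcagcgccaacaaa
Col4a2, chr8:11312555-11312854, plus strand: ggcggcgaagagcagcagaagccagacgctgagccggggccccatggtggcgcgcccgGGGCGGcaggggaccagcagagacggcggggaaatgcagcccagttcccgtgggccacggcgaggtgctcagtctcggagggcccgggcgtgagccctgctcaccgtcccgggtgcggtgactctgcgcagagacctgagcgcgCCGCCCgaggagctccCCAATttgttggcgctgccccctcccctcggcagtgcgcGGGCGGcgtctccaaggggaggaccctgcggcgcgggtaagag
Col4a1 held 1 CCAAT and 1 GGGCGG match on either strand, and Col4a2 held 1 and 3. The GGGCGG match of Col4a1 lies in the 78 shared bases and is the same site as 1 of the 3 of Col4a2. Among 32851 windows of the same length over all genes, 37.4% held CCAAT and 35.7% held GGGCGG. Of the 38 windows found for 35 of the 44 collagen genes, 34.2% held CCAAT and 60.5% held GGGCGG, at a median GC content of 59.8%, against 52.7% over all windows. A match is a string of letters and not a measured binding site.

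Col4a1 (ENSMUSG00000031502, mm9 chromosome 8, 11198423 to 11312826) was at 96.3 and 145 RPKM in the mutant-labelled lungs, against 138, 145, 121 and 124 RPKM in wild-type lungs. Col4a2 (ENSMUSG00000031503, 11312805 to 11449287) was at 84.6 and 130 RPKM in the mutant-labelled lungs, against 123, 131, 105 and 110 RPKM in wild-type lungs. The 2 genes ordered 6 lungs almost alike, with mutant-labelled library 1 lowest and mutant-labelled library 2 and wild-type library 2 highest. Neither difference passed (-0.15, SE 0.17, and -0.15, SE 0.18). The direction turned without mutant-labelled lung 1, to 0.14 for Col4a1 and 0.15 for Col4a2. The ratio of Col4a1 to Col4a2 hardly moved between lungs, at 1.14 and 1.12 in mutant-labelled lungs and 1.13, 1.11, 1.15 and 1.12 in wild-type lungs. Summed endothelial markers, 5 of 5 listed and given above, were lowest in the same mutant-labelled library. Summed fibroblast markers were lowest in wild-type library 2, at 203.6 RPKM.

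Col4a3, Col4a4 and Col4a5 form a collagen IV network that in the lung belongs to alveolar basement membranes. The genes Col4a3 and Col4a4 also lie head to head, with 71 bases between their mm9 starts. Col4a3 stood at 8.10 and 16.3 RPKM in the mutant-labelled lungs, against 14.5, 13.9, 14.0 and 14.1 RPKM in wild-type lungs. The wild-type values had a coefficient of variation (CV) of 1.82%, the smallest of the 28 collagens tested, while the mutant-labelled lungs lay on either side of them. Col4a4 stood at 13.3 and 17.9 RPKM in the mutant-labelled lungs, against 20.0, 17.2, 17.6 and 16.7 RPKM in wild-type lungs. Col4a5, the X-linked chain of the network, stood at 13.3 and 16.2 RPKM in the mutant-labelled lungs, against 14.2, 12.7, 15.9 and 17.2 RPKM in wild-type lungs. Col4a6, a chain of smooth muscle basement membranes, departed from the rest, since mutant-labelled library 1 was the highest of the 6. It stood at 5.14 and 3.63 RPKM in the mutant-labelled lungs, against 3.69, 3.01, 4.24 and 5.02 RPKM in wild-type lungs (0.11, SE 0.19). Differences for Col4a3, Col4a4 and Col4a5 were -0.27 (SE 0.23), -0.20 (SE 0.13) and -0.02 (SE 0.14), and none passed.

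Partner chains kept their proportion to different degrees. The ratio of Col4a3 to Col4a4 was 0.607 in mutant-labelled lung 1 and 0.914 in lung 2, against 0.724, 0.809, 0.799 and 0.847 in wild-type lungs. The ratio of Col4a5 to Col4a6, whose starts are 1308 bases apart, was 2.59 in mutant-labelled lung 1 and 4.46 in lung 2, against 3.85, 4.20, 3.75 and 3.43 in wild-type lungs. The highest ratio over the 6 lungs was 1.04 times the lowest for Col4a1 and Col4a2, 1.51 times for Col4a3 and Col4a4, and 1.72 times for Col4a5 and Col4a6. Pairs on different chromosomes or without a shared start lay within this range, at 1.25 times for Col1a1 over Col1a2, 1.12 times for Col3a1 over Col1a1 and 1.34 times for Col5a1 over Col5a2. Which chain of a pair was the more abundant could depend on length. Col1a1 over Col1a2 averaged 1.56 in wild-type lungs in RPKM but 0.752 per base of the longest coding transcript, and Col3a1 over Col1a1 averaged 0.805 but 1.28.

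Collagen VI was made mainly of its 3 classical chains. Col6a1 (ENSMUSG00000001119, chromosome 10, 76171537 to 76188913) was at 55.0 and 70.0 RPKM in the mutant-labelled lungs, against 57.2, 54.9, 69.0 and 60.1 RPKM in wild-type lungs. Col6a2 stood at 23.8 and 33.9 RPKM in the mutant-labelled lungs, against 26.7, 27.1, 30.7 and 29.4 RPKM in wild-type lungs. Both were highest in mutant-labelled library 2, and for Col6a2 mutant-labelled library 1 was the lowest. The differences were 0.05 (SE 0.13) and 0.00 (SE 0.14). Col6a3, the large chain, ranged more widely in mutant-labelled lungs, at 12.6 and 23.3 RPKM, than in wild-type lungs, at 17.1 to 19.1 RPKM. The later-described chains Col6a4, Col6a5 and Col6a6 stayed between 0.0567 and 0.209 RPKM in all 6 lungs and were not tested.

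The FACITs held both a variable and a steady gene. Col14a1, a FACIT that binds collagen I fibrils, stood at 9.12 and 6.91 RPKM in the mutant-labelled lungs, against 5.37, 4.77, 10.3 and 8.11 RPKM in wild-type lungs. Its CV of 36.0% over wild-type lungs was the largest of the 28 tested, and its difference of 0.19 had an SE of 0.29. Col16a1 was steady, at 6.28 and 7.70 RPKM in the mutant-labelled lungs, against 6.35, 7.42, 6.71 and 7.02 RPKM in wild-type lungs. Col12a1, a FACIT of dense connective tissue, ranged from 2.30 to 4.12 RPKM. Col20a1 was the other gene whose groups did not overlap, at 1.42 and 1.16 RPKM in the mutant-labelled lungs, against 1.56, 1.48, 1.58 and 1.71 RPKM in wild-type lungs (-0.17, SE 0.08, limma adjusted p = 0.994). The collagen IX chains, Col19a1 and Col22a1 were at or below 0.356 RPKM in every lung and were not tested.

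Transmembrane collagens carry their helix outside the cell membrane. Col13a1, found at cell contacts, stood at 11.98 and 21.2 RPKM in the mutant-labelled lungs, against 15.7, 16.0, 17.3 and 19.1 RPKM in wild-type lungs. Col23a1 stood at 11.2 and 15.4 RPKM in the mutant-labelled lungs, against 15.6, 13.0, 13.6 and 15.3 RPKM in wild-type lungs. In both, mutant-labelled library 1 was below all wild-type lungs, and the differences were -0.08 (SE 0.21) and -0.12 (SE 0.14). Col17a1, the collagen of epithelial hemidesmosomes, ranged from 0.718 to 2.03 RPKM, with the mutant-labelled lungs at both ends. Col25a1 stayed at or below 0.108 RPKM and was not tested.

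The multiplexins, basement membrane collagens whose tails can be cut off as soluble fragments, split in direction. Col18a1, the source of endostatin, stood at 9.10 and 12 RPKM in the mutant-labelled lungs, against 11.5, 11.1, 13.1 and 11.4 RPKM in wild-type lungs (-0.15, SE 0.12). Col15a1 stood at 5.49 and 3.81 RPKM in the mutant-labelled lungs, against 2.87, 3.43, 5.99 and 4.52 RPKM in wild-type lungs (0.14, SE 0.25). Neither passed. The short-chain collagens form hexagonal lattices. Col8a2 stood at 10.8 and 5.39 RPKM in the mutant-labelled lungs, against 5.06, 6.99, 7.20 and 9.32 RPKM in wild-type lungs, so that mutant-labelled library 1 was here the highest (0.12, SE 0.29). Col8a1 (ENSMUSG00000068196, chromosome 16, 57624371 to 57754850) was at 3.42 and 4.63 RPKM in the mutant-labelled lungs, against 4.38, 4.84, 4.68 and 4.66 RPKM in wild-type lungs (-0.18, SE 0.11). Col10a1, a chain of growth plate cartilage, had at most 7 reads in any lung. Col7a1, which forms the anchoring fibrils under epithelium, stood at 0.927 and 1.56 RPKM in the mutant-labelled lungs, against 1.33, 1.21, 1.37 and 1.35 RPKM in wild-type lungs (-0.06, SE 0.12). Col26a1 stood at 0.613 and 0.443 RPKM in the mutant-labelled lungs, against 0.598, 0.558, 0.458 and 0.475 RPKM in wild-type lungs, and Col28a1 ranged from 0.104 to 0.543 RPKM. The last pair was not tested.

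The vesicles carried transcripts of 6 fibrillar collagens (Col1a1, Col1a2, Col3a1, Col5a1, Col5a2 and Col11a1), 2 basement membrane collagens (Col4a1 and Col4a2) and 1 gene each of collagen VI (Col6a1), the FACITs (Col12a1), the short-chain collagens (Col8a1) and collagen XXVIII (Col28a1). All 12 were tested. Every gene of the vesicle table had a group mean of 2.003 RPKM or more in at least 1 group, so the absence of the other collagens from it gives no level for them. Between mutant-labelled and wild-type vesicles limma-trend called 0 of 12 collagens, beside 0.0% of 7615 genes tested, and limma-voom on the recovered reads called 0 collagens and 1 gene. An unadjusted p under 0.05 was reached by 0 of 12, beside 10.3% of all genes. The log2 difference was above 0 for 8 of 12, beside 46.0% of all genes, and the median was 0.25, beside -0.14 over all genes. That median was 0.11 to 0.46 with 1 library left out. It was 0.07 with sex as a covariate, a fit that sets mutant-labelled libraries against wild-type libraries 3 and 4 alone. With the replicate block, which sets mutant-labelled libraries against wild-type libraries 1 and 2 alone, it was 0.44. In the block fit sex and group cannot be told apart. The median SE of the 12 was 0.87, on the log2 scale, and of all genes 0.99, so that only large differences could have passed. The mutant-labelled vesicle libraries were the shallower ones, held more leukocyte transcripts and, in library 1, the lowest fibroblast and smooth muscle marker sums, as given above, and the part of these in the collagen values was not tested.

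**Figure D3:**
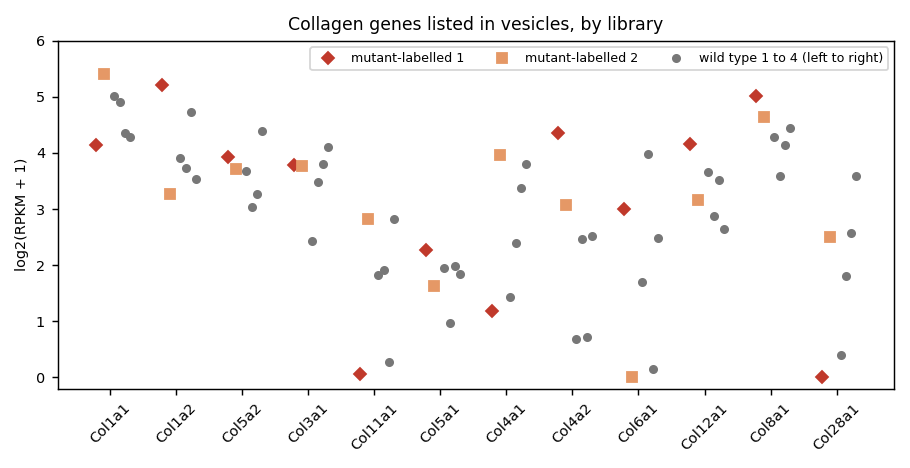
Level of the 12 collagens listed in vesicles, as log2(RPKM + 1). For each gene the diamond and the square are mutant-labelled vesicle libraries 1 and 2, and the 4 dots are wild-type libraries 1 to 4 from left to right. For Col4a2 and Col8a1 both mutant-labelled values lie above all 4 wild-type values.

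For 2 of the 12 collagens the groups did not overlap, and both were higher in mutant-labelled vesicles, beside 19.8% of all genes in either direction and 9.88% higher. Col4a2 stood at 19.5 and 7.39 RPKM in mutant-labelled vesicles, on 225 and 82 reads, against 0.607, 4.54, 0.648 and 4.72 RPKM in wild-type vesicles, on 18, 140, 18 and 169 reads. The log2 difference was 2.12 (SE 1.01, interval -0.08 to 4.31), which did not pass the test (limma adjusted p = 0.493). Leaving out any 1 library gave 1.47 to 2.76, where the sign could not turn, because the groups did not overlap. Col8a1, a short-chain collagen found in vessel walls, had the smallest CV of the 12 over wild-type vesicles (25.0%). It stood at 31.4 and 24.1 RPKM in mutant-labelled vesicles, on 280 and 206 reads, against 18.5, 11.0, 16.7 and 20.9 RPKM in wild-type vesicles, on 263 to 577 reads. That log2 difference, 0.71 (SE 0.67, interval -0.73 to 2.16), also missed the threshold (limma adjusted p = 0.664).

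The fibrillar transcripts of vesicles varied from library to library within both groups. Col1a1 stood at 16.6 and 41.2 RPKM in mutant-labelled vesicles, against 31.3, 29.2, 19.5 and 18.4 RPKM in wild-type vesicles. Col1a2 stood at 35.8 and 8.61 RPKM in mutant-labelled vesicles, against 13.9, 12.3, 25.5 and 10.6 RPKM in wild-type vesicles. For these partner chains the mutant-labelled libraries were the extremes, in opposite order: library 1 was lowest for Col1a1 and highest for Col1a2. The differences were 0.13 (SE 0.67) and 0.26 (SE 0.78). Col3a1 was alike in the mutant-labelled vesicles, at 12.8 and 12.7 RPKM, against 4.38, 10.1, 12.9 and 16.2 RPKM in wild-type vesicles (0.33, SE 0.79). Col5a2 stood at 14.2 and 12.2 RPKM in mutant-labelled vesicles, against 11.8, 7.20, 8.59 and 20.0 RPKM in wild-type vesicles (0.23, SE 0.76). Both overlapped. Summed over the 6 fibrillar genes, the level was 83.3 and 82.8 RPKM in mutant-labelled vesicles, against 66.9, 62.5, 69.6 and 73.8 RPKM in wild-type vesicles. Col5a1 ranged from 0.960 to 3.85 RPKM over the 6 libraries. Col11a1, known from cartilage fibrils, ranged from 0.0460 RPKM, a single read in mutant-labelled library 1, to 6.05 RPKM.

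Other collagens of the vesicles were as uneven. Col4a1 stood at 1.26 and 14.6 RPKM in mutant-labelled vesicles, on 15 and 167 reads, against 1.70, 4.28, 9.32 and 13.0 RPKM in wild-type vesicles (-0.18, SE 1.07). Its mutant-labelled values lay at both ends of the range. Col6a1 stood at 6.97 and 0 RPKM in mutant-labelled vesicles, against 2.25, 14.9, 0.109 and 4.62 RPKM in wild-type vesicles (-0.59, SE 1.24). The count of 0 in mutant-labelled library 2 allows up to 0.411 RPKM, the worth of 3 reads. Col28a1 stood at 0 and 4.63 RPKM in mutant-labelled vesicles, where 0 allows up to 0.351 RPKM, against 0.319, 2.50, 4.96 and 11.0 RPKM in wild-type vesicles (-0.85, SE 1.15). Col12a1 stood at 16.8 and 7.99 RPKM in mutant-labelled vesicles, against 11.7, 6.34, 10.4 and 5.27 RPKM in wild-type vesicles (0.49, SE 0.80). In all 4 genes the groups overlapped.

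The paired chains of collagens IV and I kept a narrow proportion in lung and varied widely in vesicles. Of the reads on Col4a1 and Col4a2 together, Col4a1 took 6.25% in mutant-labelled vesicle library 1 (95% Wilson interval 3.82% to 10.1%, with 15 reads on Col4a1 and 225 on Col4a2) and 67.1% in library 2 (61.0% to 72.6%). In wild-type vesicles it took 74.3%, 49.3%, 93.7% and 73.9%, with the widest interval 63.0% to 83.1%. In the 6 lungs the share was 53.3% to 54.3%. As a ratio of RPKM, Col4a1 over Col4a2 ran from 0.0647 to 14.4 in vesicles and from 1.11 to 1.15 in lung. The intervals of the 2 mutant-labelled vesicle libraries do not overlap, but they cover counting error only. Collagen I gave the same picture with a smaller range. Col1a1 took 19.9% and 71.9% of the reads on Col1a1 and Col1a2 in mutant-labelled vesicles, against 54.6%, 56.0%, 29.0% and 48.2% in wild-type vesicles, and 42.9% to 48.4% in the 6 lungs. Mutant-labelled vesicle library 1 was thus the lowest for both pairs. Col5a1 over Col5a2 ran from 0.130 to 0.346 in vesicles and from 1.08 to 1.45 in lung, so that Col5a1 was the smaller partner in every vesicle library and the larger in every lung in RPKM, though not per base of coding transcript (0.751 to 1.01 in lung).

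**Figure D4:**
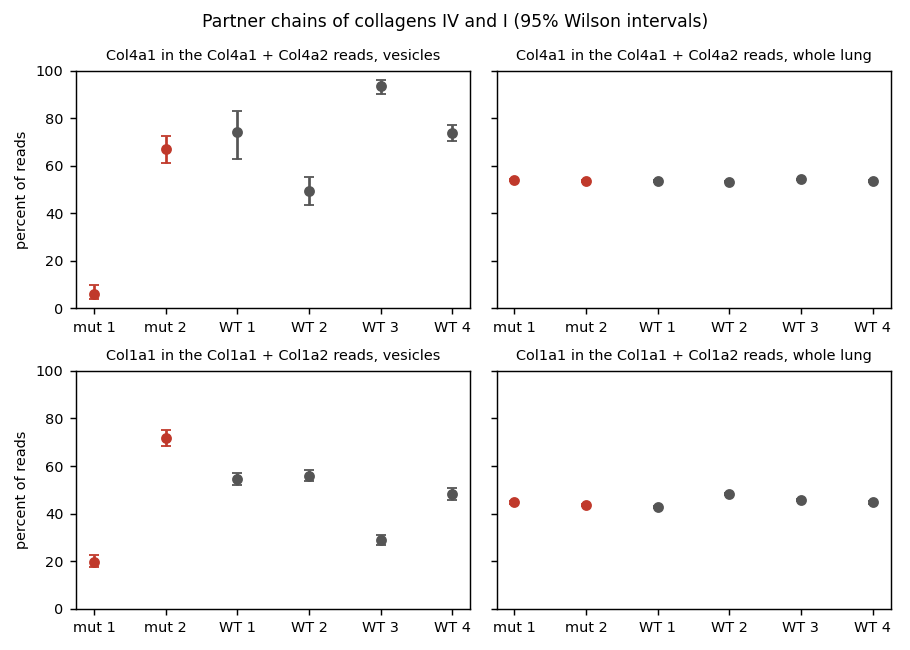
Share of Col4a1 in the reads of Col4a1 and Col4a2 (top) and of Col1a1 in the reads of Col1a1 and Col1a2 (bottom), in percent, for vesicle (left) and lung (right) libraries with 95% Wilson intervals. Red points are mutant-labelled and grey points wild-type libraries. Vesicle points run from 6.25% to 93.7% in the top row, while lung points stay between 53.3% and 54.3%.

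Vesicles and lung were normalized in separate tables, so they were set side by side without a test, by the share of each gene in the summed RPKM of the 12 collagens listed in both. Basement membrane collagens took 14.3% ± 1.79 in mutant-labelled vesicles (SD, n = 2) and 8.20% ± 4.53 in wild-type vesicles (SD, n = 4), against 49.1% ± 2.98 in mutant-labelled lungs and 51.0% ± 3.04 in wild-type lungs. Fibrillar collagens took 55.4% ± 4.37 in mutant-labelled vesicles and 60.5% ± 4.40 in wild-type vesicles, against 35.7% ± 2.11 in mutant-labelled lungs and 34.9% ± 1.77 in wild-type lungs. For both classes every vesicle library lay outside the range of the 6 lungs. The 12 genes are set by what the vesicle table lists, so chains abundant in lung, such as Col6a2, are left out. Over all 44 collagens of the lung table, basement membrane collagens took 45.1% and fibrillar collagens 26.4% in wild-type lungs. Col8a1 took 18.4% ± 1.92 in mutant-labelled vesicles and 14.8% ± 3.22 in wild-type vesicles, against 0.873% ± 0.0189 in mutant-labelled lungs and 0.951% ± 0.0526 in wild-type lungs. Col12a1 took 8.09% ± 3.46 in mutant-labelled vesicles and 7.68% ± 3.36 in wild-type vesicles, against 0.651% ± 0.0781 in mutant-labelled lungs and 0.761% ± 0.0717 in wild-type lungs. The gap in the basement membrane share, wild-type vesicles minus wild-type lung, was -42.8 percentage points, and -36.6 per base of coding transcript.

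**Figure D5:**
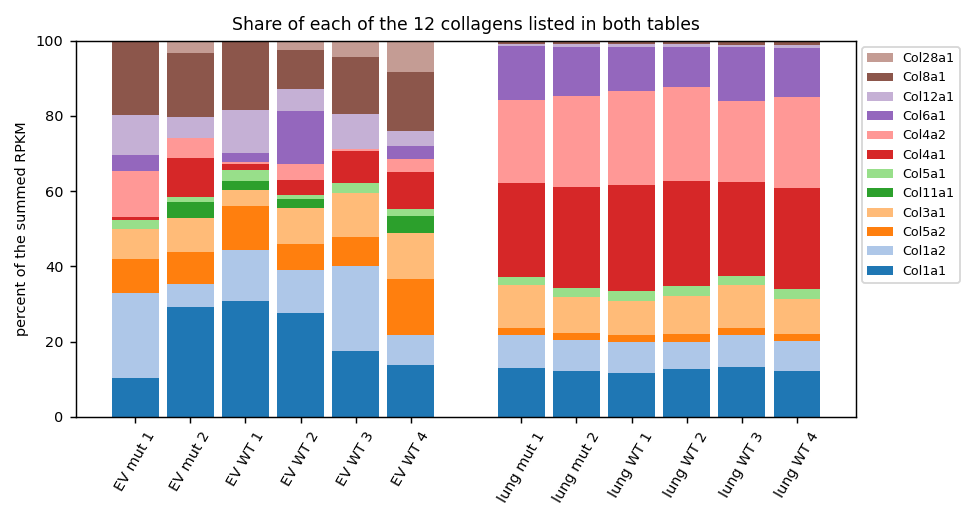
Share of each of the 12 collagens listed in both tables in their summed RPKM, in percent, one bar per library. The 6 vesicle bars are on the left, the 6 lung bars on the right, mutant-labelled (mut) left of wild type (WT) in each. The red and pink Col4a1 and Col4a2 blocks fill 46.7% to 53.2% of a lung bar and 2.27% to 15.6% of a vesicle bar.

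Ranks within a library do not depend on the scale of a table. They were taken over the genes of the vesicle table, all of which reach a set level in vesicles, so a collagen at the bottom in lung, such as Col11a1 or Col28a1, had almost no room to rank lower in vesicles. Among the 8096 genes of the vesicle table, Col8a1 stood on average at percentile 75.8 in wild-type vesicles and 21.8 in wild-type lungs, a difference of 54.0 points. Col12a1 stood 43.7 points higher in wild-type vesicles, Col28a1 41.1, Col11a1 35.9 and Col5a2 23.8. Collagen I chains kept a high rank in both sources, with Col1a1 at percentile 81.8 in wild-type vesicles and 91.8 in wild-type lungs, and Col1a2 at 73.5 in the vesicles and 85.8 in the lungs. At the other end, Col4a2 stood at percentile 34.4 in wild-type vesicles and 96.3 in wild-type lungs (-61.9 points), Col6a1 at 42.3 in the vesicles and 91.6 in the lungs (-49.3 points), and Col4a1 at 53.5 in the vesicles and 96.9 in the lungs (-43.4 points). These ranks varied between wild-type vesicle libraries, from 18.2 to 49.4 for Col4a2 and from 9.49 to 75.1 for Col6a1. In the mutant-labelled group Col4a2 averaged percentile 66.0 in vesicles and 95.7 in lungs. Col6a1 averaged 32.1 in vesicles and 91.8 in lungs, and Col4a1 54.8 in vesicles and 96.3 in lungs. By these averages Col6a1 and not Col4a2 was the farther below its lung rank there. The mutant-labelled vesicle libraries lay far apart, at percentiles 4.87 and 59.35 for Col6a1, the lower on 0 reads. They lay at 55.8 and 76.2 for Col4a2 and at 38.1 and 71.5 for Col4a1. Whole lung holds every lung cell type, and the vesicles come from cultured mesenchymal cells. The vesicles also held leukocyte marker transcripts, which varied between libraries, as given above. Cell type, culture and packaging into vesicles therefore cannot be told apart here.

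Collagen chains are modified, folded, exported, trimmed and cross-linked by a set of helper proteins, and cells sense collagen through receptors. Of a list of 40 such helper genes and 10 receptor genes, the lung table held all 50 and 43 were tested. Limma-trend called 0 of the 43, and 0 had an unadjusted p under 0.05, beside 3.75% of all genes. The log2 difference was above 0 for 11 and below 0 for 32, with a median of -0.06, beside 0.01 over all genes. The 3 genes with the smallest p were Ddr2, Bmp1 and Fkbp14, each with a limma adjusted p of 0.994. Ddr2, a tyrosine kinase receptor for fibrillar collagen, stood at 13.6 and 19.1 RPKM in the mutant-labelled lungs, against 21.7, 19.5, 19.3 and 20.8 RPKM in wild-type lungs (-0.31, SE 0.13). Bmp1, which trims procollagen ends, stood at 12.5 and 11.9 RPKM in the mutant-labelled lungs, against 14.2, 12.7, 17.1 and 15.7 RPKM in wild-type lungs (-0.26, SE 0.12). For both of these the groups did not overlap. Over the list 1 tested gene, the prolyl isomerase Ppib (149 and 150 RPKM in the mutant-labelled lungs, against 140 to 147 RPKM in wild-type lungs), lay higher without overlap and 2 lay lower, beside 11.6% of all genes in either direction. Fkbp14, a prolyl isomerase, stood at 2.71 and 3.65 RPKM in the mutant-labelled lungs, against 4.32, 4.93, 3.58 and 3.59 RPKM in wild-type lungs (-0.29, SE 0.14).

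The vesicle table held 34 of the 50 helper and receptor genes, all tested. Limma-trend called 0 of the 34, and 5 had an unadjusted p under 0.05, beside 10.3% of all genes. The log2 difference was above 0 for 15 and below 0 for 19, beside 46.0% of all genes above 0. The median was -0.11, beside -0.14 over all genes. Fkbp7, an isomerase of the endoplasmic reticulum, was at 0 and 0 RPKM in mutant-labelled vesicles, against 21.7, 22.5, 7.22 and 30.6 RPKM in wild-type vesicles (fitted difference -4.27, SE 0.90, limma adjusted p = 0.243). Plod3, which hydroxylates and glycosylates collagen lysines, stood at 67.7 and 15.2 RPKM in mutant-labelled vesicles, against 5.15, 3.90, 6.27 and 2.89 RPKM in wild-type vesicles (2.62, SE 0.86, limma adjusted p = 0.441). Lair1, a collagen receptor of leukocytes, stood at 11.1 and 16.8 RPKM in mutant-labelled vesicles, against 0, 2.68, 2.22 and 0 RPKM in wild-type vesicles (2.99, SE 1.01, limma adjusted p = 0.451). In all 3 the groups did not overlap and none passed. Fkbp7 averaged 0 RPKM in mutant-labelled vesicles and Lair1 1.22 RPKM in wild-type vesicles. Every listed gene reached 2.003 RPKM in at least 1 group, so both were listed only through the group where they are high. That favours non-overlap and small p-values, which are therefore no support for a difference. The helper gene P3h1, 1 of the 5 and counted below as higher, was likewise listed only through mutant-labelled vesicles. Its mean was 4.88 RPKM there, against 0.168 RPKM in wild-type vesicles. The same limit holds for Fkbp7 with 1 library left out. Over the list, 4 of the 34 genes lay higher without overlap and 2 lower, beside 19.8% of all genes in either direction. Without mutant-labelled vesicle library 2, 4 genes of the list passed (Fkbp7, Itgb1, Kdelr2 and Plod3), and 377 genes passed over the whole table. That fit sets 1 mutant-labelled library, the one low in fibroblast and smooth muscle markers, against 4 and takes its spread from the wild-type libraries.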

How the data were processed

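The authors deposited 1 table of lung and 1 of vesicle libraries. Their headers name no unit, and the deposited values were read as RPKM from their steps: a gene's values are multiples of what 1 read is worth. Reads were recovered from these steps for all 44 collagens (tolerance 0.03 of a read, lengths of 150 to 30000 bases), and the recovered reads of all genes came to 100.6% to 100.7% of depth in lung and 98.8% to 99.2% in vesicles. TopHat2, HTSeq and mm9 are named per the submitters' processing notes. Versions, strand setting and annotation: not given in the sources used here, so reads where Col4a1 and Col4a2 overlap cannot be assigned by strand. Gene positions come from GENCODE M1 (mm9).

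In each table the genotype groups were compared by limma-trend (limma 3.58.1, R 4.3.3) on log2(RPKM + 1), a scale that understates the change of low genes, for genes that reached 1 RPKM in 2 or more libraries. Adjusted p is Benjamini-Hochberg over all genes of a table, with a threshold of 0.05. The members, the classes and the gene lists were chosen with earlier results of these data known. Genes given in every library were the 4 most abundant fibrillar and the 2 most abundant of each other class, those with an unadjusted p under 0.05 or without overlap at a log2 difference of at least 0.5, the tested pairs with neighbouring starts, and the 3 helper or receptor genes with the smallest p. Col20a1 and Col6a3 were added after their values were seen. Settings were varied one at a time: pseudocount, filter, scaling, replicate block, sex, array weights, and each library left out. The voom fit and coding lengths were chosen after seeing the data. Intervals and floors cover counting error only.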

Additional observations from a re-analysis of the deposited data

How the results depend on the processing

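No collagen crossed the threshold under any alternative run in either table. Of 108 lung values of the 18 named collagens with 1 library left out, 85 kept their direction and 23 turned. Of 141 lung values under the other planned settings, 132 kept it and 9 turned. In vesicles 50 of 60 and 73 of 79 values of 10 named collagens kept their direction.

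The median log2 difference of the lung collagens, -0.08, was -0.014 without a filter on low values and -0.26 to 0.09 with 1 library left out. The lung list of helper and receptor genes, at -0.06, had a median of -0.10 with the replicate block and of -0.22 to 0.028 with 1 library left out. In vesicles that list, at -0.11, had a median of 0.13 with the replicate block and of -0.34 to 0.14 with 1 library left out, and 0 to 4 of its genes passed. The number of all genes called was 1 in lung without a filter (Gm17374), 1 in vesicles by limma-voom (Fat4) and 0 to 377 in vesicles with 1 library left out. The basement membrane gap between wild-type vesicles and wild-type lung was -36.5 percentage points without the most abundant gene of each table and -36.6 per coding transcript length, beside -42.8. Col1a1 over Col1a2 was 0.752 and Col3a1 over Col1a1 was 1.28 per coding transcript length, beside 1.56 and 0.805.

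Deviations of same-numbered libraries from their group means had correlations of -0.48 and 0.05 in lung, and -0.05 and -0.12 in vesicles. With 2 mutant-labelled libraries, the deviations of 1 are those of the other with the sign turned, so these values cannot decide whether libraries are paired. The numbers were not taken to pair mutant-labelled with wild-type libraries, although wild-type libraries 1 and 2 carried Y-linked transcripts in both sources. Wild-type libraries 3 and 4 have no mutant-labelled library of the same number. The replicate block therefore sets the mutant-labelled libraries against wild-type libraries 1 and 2 alone, and sex goes with the groups there. The sex covariate sets the mutant-labelled libraries against wild-type libraries 3 and 4 alone. The replicate block called 0 genes in both tables and turned Col13a1 in lung (0.008) and Col1a1 (-0.20), Col28a1 (0.14) and Col4a1 (0.65) in vesicles. With sex as a covariate Col14a1 (-0.18), Col15a1 (-0.15), Col6a1 (-0.052), Col6a2 (-0.077) and Col8a2 (-0.085) turned in lung, and Col3a1 (-0.17), Col5a2 (-0.001) and Col6a1 (0.18) in vesicles. Col6a2 in lung, at 0.00, was -0.001 with a pseudocount of 0.1, -0.016 with median-ratio scaling and 0.00, just below 0, by limma-voom, and Col1a2 was 0.001 with array weights.

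With 1 library left out, lung differences that turned ran from -0.47 to 0.31 for Col13a1, -0.075 to 0.36 for Col15a1, -0.11 to 0.15 for Col16a1, -0.34 to 0.028 for Col18a1, -0.26 to 0.10 for Col1a1, -0.22 to 0.21 for Col1a2, -0.33 to 0.10 for Col23a1, -0.15 to 0.081 for Col3a1, -0.45 to 0.14 for Col4a1, -0.46 to 0.15 for Col4a2, -0.54 to 0.083 for Col5a1, -0.12 to 0.22 for Col6a1, -0.25 to 0.25 for Col6a2, -0.26 to 0.15 for Col7a1 and -0.33 to 0.56 for Col8a2. Those of vesicles ran from -0.007 to 0.98 for Col12a1, -0.51 to 0.76 for Col1a1, -0.71 to 1.23 for Col1a2, -2.09 to 0.40 for Col28a1, -0.012 to 0.55 for Col3a1, -1.58 to 1.21 for Col4a1 and -2.08 to 0.91 for Col6a1. The cause of these moves was not tested. Groups of 2 against 4 libraries, sex shared by both mutant-labelled libraries, and vesicle libraries of 1.68 to 5.41 M reads limit every comparison: a difference that missed the threshold is not shown to be absent.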

Other observations

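Wild-type lungs 1 and 2, which carried Y-linked transcripts, had lower Col14a1 and Col15a1 than the other 4 lungs, a pattern chosen after the values were seen and not tested. Col14a1, the FACIT on collagen I fibrils, stood at 5.37 and 4.77 RPKM in those lungs and at 6.91 to 10.3 RPKM in the others. Col15a1, a multiplexin of vascular and muscle basement membranes, stood at 2.87 and 3.43 RPKM in those lungs and at 3.81 to 5.99 RPKM in the others. Neither gene was listed in vesicles. With 2 such libraries, both wild type, sex and any other feature they share cannot be told apart.

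Among the helper genes, also chosen after their values were seen, the collagen-binding protein Sparc stood at 833 and 1773 RPKM in mutant-labelled vesicles and 1340 to 2022 RPKM in wild-type vesicles. P4hb, a subunit of the prolyl hydroxylase of collagen, stood at 161 and 140 RPKM in mutant-labelled vesicles and 127 to 233 RPKM in wild-type vesicles.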
